A study of Mus musculus with 9 samples.

Results

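The genes described here are 37 mouse genes of hepatic stellate cells, fibroblasts and the extracellular matrix. They were chosen by name with earlier results of these data known, so the shares of them called are not those of a blind choice. All 37 were found in a table of 56691 genes. RNA was sequenced from cultured cells labelled as primary mouse hepatocytes, in 9 libraries. There were 3 libraries from cells given Bobcat339, an inhibitor of the TET enzymes that oxidise methylated cytosine. A further 3 came from cells given 4-octyl itaconate (4OI), an ester by which the metabolite itaconate is brought into cells, and 3 from cells given the solvent DMSO. In every group the cells had 4 h to attach and were then kept in fresh medium for 24 h. No source used here gives the dose or duration of the agents. Remodelin hydrobromide, which inhibits the acetyltransferase NAT10, is named in the treatment protocol as well, and no label says which libraries received it. Strain, sex and age of the mice are not stated in the labels. Hepatocyte number 1 stands in the title of each 4OI library, whereas the DMSO titles carry numbers 1, 2 and 3. Separate animals or cultures are not stated for the replicates, and the p-values therefore reflect only the spread among these libraries, which may be technical.

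Stellate cells lie between the hepatocytes and the sinusoidal endothelium, where they store retinyl esters and make little matrix while quiescent. After injury they take on the features of myofibroblasts, with smooth muscle actin and fibrillar collagen, and portal fibroblasts contribute as well. Many genes used to mark these cells are shared: type IV collagen, Sparc and Vim are also made by endothelial cells, and Vim by macrophages.

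The libraries held 81046789 to 81685369 deposited counts with Bobcat339, 70876333 to 83902788 with 4OI and 67434312 to 68247951 with DMSO. About 4 deposited counts were taken as 1 read pair, an approximation that rests on an excess of multiples of 4. Levels are in CPM, that is, counts brought to the same library size with TMM scaling, and 3 read pairs (12 counts) corresponded to 0.137 to 0.180 CPM, taken as the floor of detection for counting error only. The label was checked against 12 hepatocyte markers, which summed to 43570 to 44960 CPM with Bobcat339, 2710 to 2935 CPM with 4OI and 44770 to 47680 CPM with DMSO. The 4OI libraries thus carried the label of hepatocytes with their markers far below those of the other groups. Markers of colon epithelium, a tissue outside the label, summed to 130.4, 14.2 and 13.1 CPM in Bobcat339 libraries 1 to 3, to 1.19 to 13.3 CPM with 4OI and to 141.8 to 164.8 CPM with DMSO. Bobcat339 library 1 stood apart from the other two in that list.

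Together the 37 genes held 0.0554% to 0.0571% of the counts in the Bobcat339 libraries, 0.467% to 0.494% in the 4OI libraries and 0.0744% to 0.0827% in the DMSO libraries. Their summed level was 571.5 to 596.5 CPM with Bobcat339, 4442 to 4718 CPM with 4OI and 751.4 to 841.4 CPM with DMSO, and the 3 groups did not overlap. Mitochondrial transcripts, whose share can reflect RNA or cell quality, differed between the groups in the same order, at 2.36% to 3.12% of counts with Bobcat339, 8.37% to 8.98% with 4OI and 4.43% to 5.59% with DMSO, and their part in the result was not tested. In RNA from a whole culture, fewer cells of a type and less RNA per cell cannot be told apart. A handful of genes carried most of this sum. Vim, Col4a1, Col4a2 and Sparc made up 76.7% to 77.8% of it with Bobcat339, 84.1% to 84.3% with 4OI and 77.2% to 78.6% with DMSO. At the other end, 9 genes were at or under the floor in every Bobcat339 library (Lrat, Hand2, Tcf21, Ngfr, Cygb, Colec11, Pdgfd, Thy1 and Mgp). In the 4OI libraries this held for Thy1 alone, and in the DMSO libraries for 8 genes (Lrat, Hand2, Tcf21, Colec11, Pdgfd, Cspg4, Thy1 and Mgp). Genes above a mean of 10 CPM numbered 7 with Bobcat339, 14 with 4OI and 7 with DMSO.

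**Figure D1:**
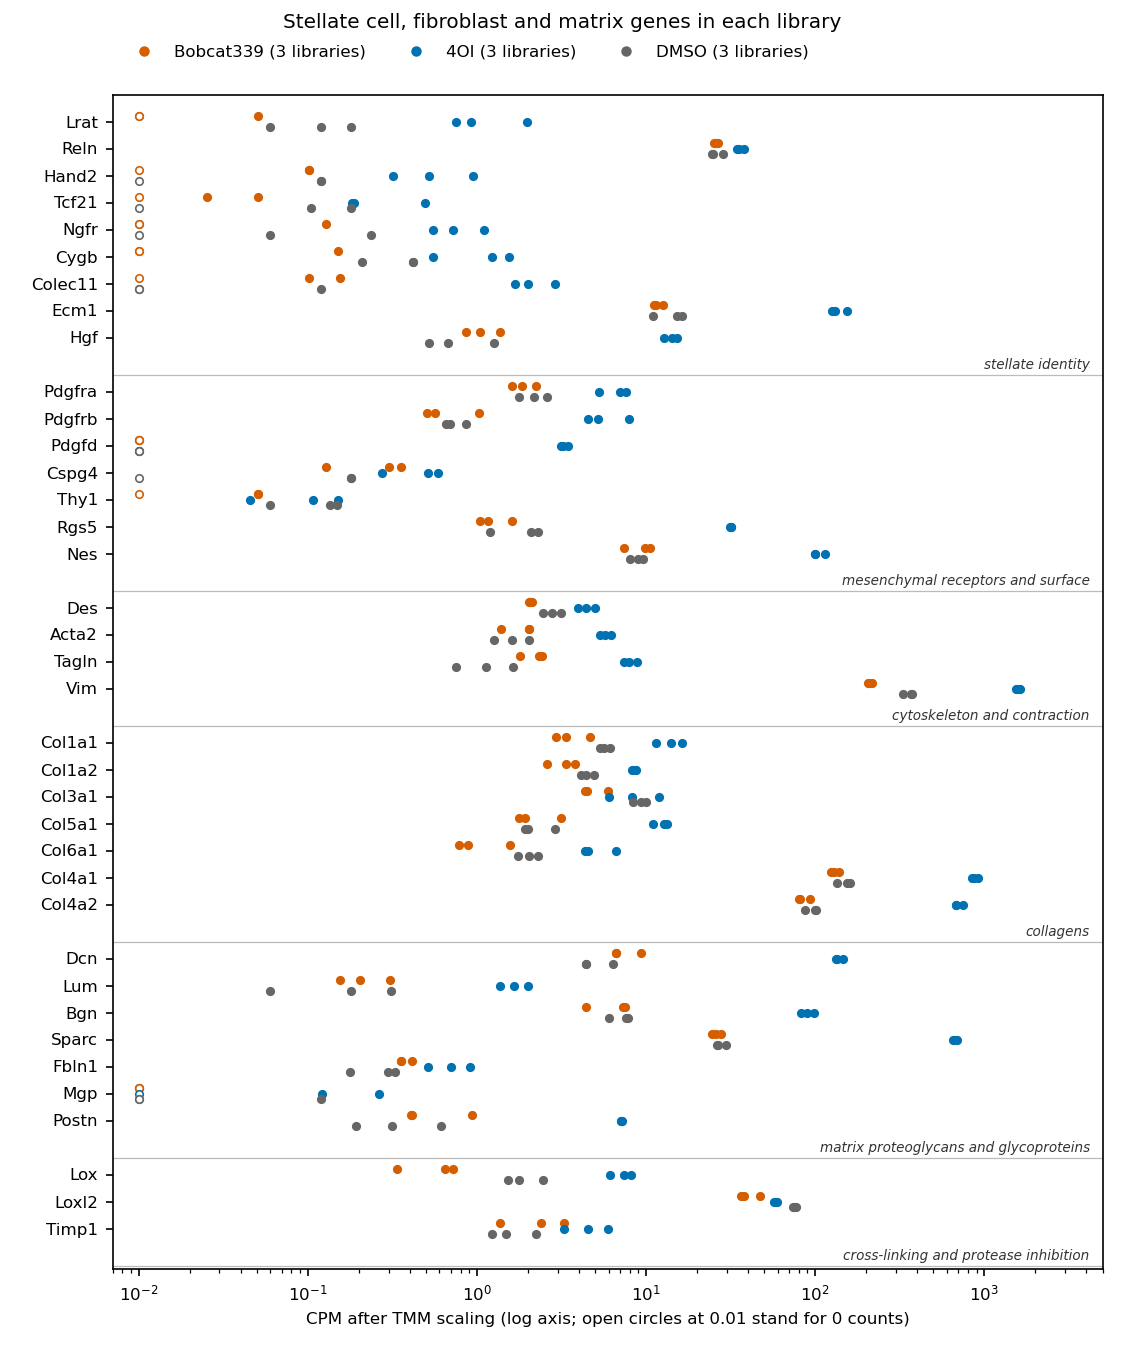
Level of each of the 37 genes in each of the 9 libraries, in CPM after TMM scaling on a log axis, with genes grouped by role and open circles marking 0 counts. The 4OI points lie to the right of the DMSO points for most genes, whereas the Bobcat339 points lie close to or left of them, as for Vim, Lox and Loxl2.

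Bobcat339 was compared with DMSO to ask what the TET inhibitor did to these genes. Vim, Lox, Loxl2, Col1a1 and Col3a1 fell with Bobcat339, and Tagln and Dcn rose. By edgeR's quasi-likelihood test with Benjamini-Hochberg adjustment over 18379 genes, 36 of the 37 were tested and 7 (19.4%) were called at an adjusted p under 0.05, against 20.7% of all genes tested. Of these, 2 were higher and 5 lower, where 11.6% of all genes were called higher and 9.06% lower. The libraries of the groups did not overlap for 14 members, 3 above and 11 below DMSO, where 36.9% of all genes tested showed such a separation, 18% above and 18.8% below. The median log2 fold change was -0.19 over the members and -0.01 over all genes. The share of members called was thus close to that of any genes in this comparison, and Pdgfd, counted among those tested, had no counts in either group. The calls of Vim, Lox and Loxl2 were kept in each of 17 alternative fits, and those of the other 4 were not.

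The comparison of 4OI with DMSO asks the same of the itaconate ester, against the same DMSO libraries. With 4OI, 28 members rose and Loxl2 fell, so that 29 of 36 (80.6%) were called, against 63.7% of all genes. Calls of a rise took in 77.8% of the members and 33.3% of all genes tested, and 30.4% of all genes were called lower. A rise of at least 2-fold was called for 25 members, where 21% of all genes reached it. Of these members, Lrat, Colec11 and Pdgfd were at or under the floor in every DMSO library. All 4OI libraries lay above all DMSO libraries for 33 members, and 37.7% of all genes did so. The median log2 fold change was 2.50 over the members, the same with Pdgfd set to its lower bound, and 0.08 over all genes. The 7 members not called were Hand2, Tcf21, Ngfr, Cygb, Cspg4, Thy1 and Col3a1, of which the first 6 averaged between 0.101 and 1.10 CPM with 4OI.

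**Figure D2:**
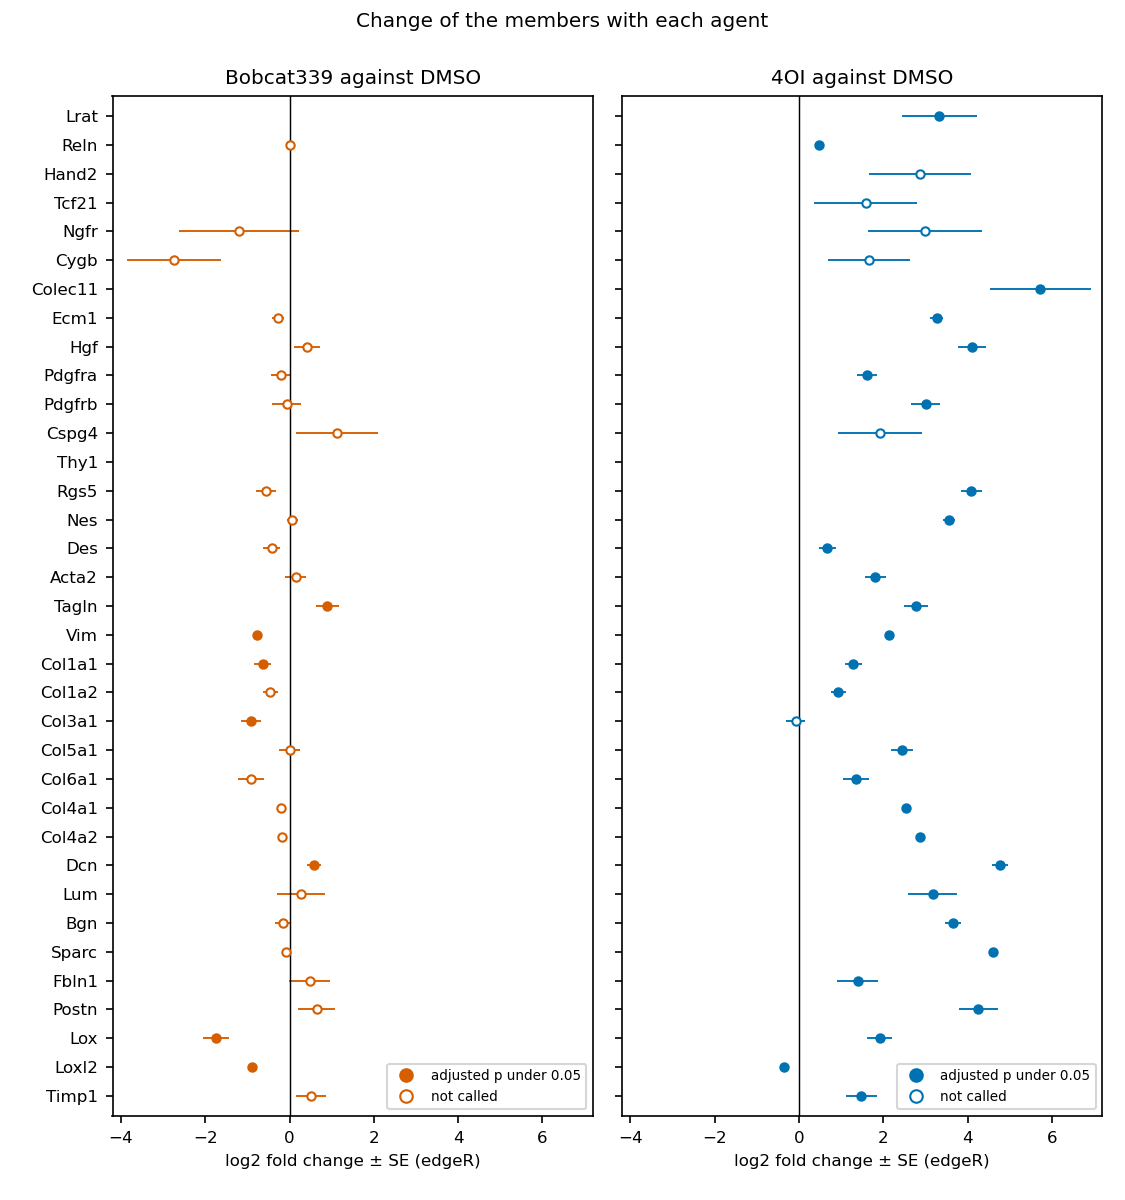
Log2 fold change ± SE from the edgeR fit for 30 genes with Bobcat339 against DMSO on the left and 34 genes with 4OI against DMSO on the right, filled where the adjusted p was under 0.05. Pdgfd, with no counts in the DMSO libraries, Mgp, which was not tested, and genes at or under the floor in both groups are left out. In the 4OI panel most points lie right of 0, with Loxl2 the called gene left of it, whereas in the Bobcat339 panel they scatter around 0.

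Among the genes of stellate identity, levels split between a few that were well measured and several near the floor. Reln, a secreted glycoprotein of quiescent stellate cells, had 25.2, 26.6 and 26.1 CPM in the Bobcat339 libraries, 37.8, 34.5 and 35.6 CPM in the 4OI libraries and 24.8, 28.4 and 24.7 CPM in the DMSO libraries. The 4OI libraries lay above all others, and those of Bobcat339 overlapped DMSO. Reln rose 1.38-fold with 4OI (log2 fold change 0.47 ± 0.09 SE, adjusted p = 0.000884). Ecm1, a secreted matrix protein that restrains latent transforming growth factor beta and is made by hepatocytes too, had 11.2, 11.4 and 12.7 CPM with Bobcat339, 125.7, 130.5 and 154.1 CPM with 4OI and 15.2, 16.3 and 10.9 CPM with DMSO. It rose 9.66-fold with 4OI (3.27 ± 0.15, adjusted p = 1.31e-08), and its Bobcat339 libraries overlapped DMSO (-0.27 ± 0.14, adjusted p = 0.235). Hgf, the hepatocyte growth factor that stellate and endothelial cells supply to hepatocytes, averaged 1.09 ± 0.26 CPM with Bobcat339, 14.1 ± 1.21 CPM with 4OI and 0.821 ± 0.395 CPM with DMSO (SD, n = 3). That was a 17.1-fold rise with 4OI (4.10 ± 0.33, adjusted p = 9.93e-07).

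The other 6 genes of this group were close to the floor outside the 4OI libraries. Lrat, which esterifies retinol for storage, had 0, 0.0509 and 0 CPM with Bobcat339, 1.97, 0.752 and 0.923 CPM with 4OI and 0.0595, 0.119 and 0.180 CPM with DMSO. The 4OI libraries lay above the rest and were called higher than DMSO (adjusted p = 0.00708). Colec11, a collectin of stellate cells, was called higher with 4OI too (adjusted p = 0.00169), at 2.00, 1.68 and 2.89 CPM with 4OI against 0, 0 and 0.12 CPM with DMSO. Lrat and Colec11 were singled out after their values were seen. Hand2 and Tcf21, transcription factors of the stellate lineage, Ngfr, the neurotrophin receptor, and Cygb, a globin of stellate cells, reached mean levels of 0.287 to 1.10 CPM with 4OI. Their 4OI libraries all lay above the DMSO libraries, yet their adjusted p ran from 0.0576 for Hand2 to 0.281 for Tcf21. In all, 5 of these 9 genes were called higher with 4OI by edgeR, at a median log2 fold change of 2.98, and 6 by DESeq2, which added Hand2. With Bobcat339 the edgeR test called 0 of the 9, whereas 2 (Lrat and Cygb, both lower) had an unadjusted p under 0.05 and DESeq2 called those 2. Lrat was at or under the floor in every library of both groups. No share of all genes by unadjusted p or by DESeq2 is given, and edgeR called 20.7% of all genes after adjustment. The 2 are therefore not read as a result about the group. The sum over 6 defining stellate genes (Lrat, Reln, Hand2, Tcf21, Des and Pdgfrb) was 27.8 to 29.8 CPM with Bobcat339, 44.8 to 50.4 CPM with 4OI and 28.3 to 32.0 CPM with DMSO. Reln supplied most of it in every group.

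The second group holds receptors and surface proteins of mesenchymal cells and pericytes. Rgs5, a regulator of G protein signalling that marks pericytes and stellate cells, had 1.16, 1.04 and 1.61 CPM with Bobcat339, 31.3, 31.7 and 31.9 CPM with 4OI and 2.08, 1.19 and 2.31 CPM with DMSO. The 4OI values stood close together and far above the others, while Bobcat339 and DMSO overlapped. The rise with 4OI was 17.0-fold (4.09 ± 0.25, adjusted p = 9.98e-08), and the value for Bobcat339 was -0.55 ± 0.24 (adjusted p = 0.143). The 250 bases before its start site are shown because Rgs5 is a marker that defines the set. They lie at chr1:169655251-169655500 on the plus strand of GRCm38.p6 (RefSeq), with a CCAAT box, here read on the other strand as ATTGG, in capitals 67 bases before the start site:
Rgs5: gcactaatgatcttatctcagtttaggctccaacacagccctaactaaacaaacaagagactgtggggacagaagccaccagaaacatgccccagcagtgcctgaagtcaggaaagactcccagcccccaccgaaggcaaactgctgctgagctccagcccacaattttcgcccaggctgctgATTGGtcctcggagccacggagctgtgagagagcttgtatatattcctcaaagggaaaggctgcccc

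Nes, the intermediate filament nestin of activated stellate cells and new vessels, had 7.41, 9.81 and 10.6 CPM with Bobcat339, 99.8, 99.6 and 114.7 CPM with 4OI and 8.04, 8.90 and 9.62 CPM with DMSO. Bobcat339 and DMSO overlapped, and the 4OI libraries were 11.8-fold higher than DMSO (3.56 ± 0.15, adjusted p = 4.38e-09). The receptors for platelet-derived growth factor (PDGF) rose to different extents. Pdgfrb, the receptor through which PDGF drives stellate cell growth, rose 8.01-fold with 4OI (3.00 ± 0.35, adjusted p = 2.27e-05), and Pdgfra, found on fibroblasts and quiescent stellate cells, rose 3.04-fold (1.61 ± 0.23, adjusted p = 0.000129). Pdgfd, a ligand of the beta receptor, had 3.16, 3.45 and 3.25 CPM with 4OI and no counts in any Bobcat339 or DMSO library. Its level with 4OI was at least 18.3-fold higher than in DMSO libraries, taking 3 read pairs in a library as the floor (adjusted p = 1.25e-05), and it was singled out after its values were seen. Cspg4, the NG2 proteoglycan of pericytes, had 0.273 to 0.591 CPM with 4OI against 0 to 0.180 CPM with DMSO (adjusted p = 0.112). Thy1, a surface glycoprotein of portal fibroblasts, stayed at or under the floor in all 9 libraries, so no fold is given. With 4OI, 5 of the 7 genes were called higher, at a median of 3.00. With Bobcat339 the edgeR test called 0 of the 7, 1 (Rgs5, lower) had an unadjusted p under 0.05, and DESeq2 called the same gene. Here too no share of all genes by unadjusted p or by DESeq2 is given.

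The cytoskeletal genes differed between the agents. Vim, the intermediate filament protein vimentin, had 208.1, 215.4 and 206.0 CPM in the Bobcat339 libraries, 1580, 1533 and 1633 CPM in the 4OI libraries and 370, 372.9 and 332.8 CPM in the DMSO libraries. Every Bobcat339 library lay below and every 4OI library above all DMSO libraries. Vim fell 1.71-fold with Bobcat339 (-0.77 ± 0.07, adjusted p = 3.99e-05) and rose 4.41-fold with 4OI (2.14 ± 0.07, adjusted p = 1.06e-09). Tagln, the actin-binding protein SM22 of contractile cells, had 2.32, 1.81 and 2.44 CPM with Bobcat339, 7.92, 8.84 and 7.44 CPM with 4OI and 1.13, 1.64 and 0.749 CPM with DMSO. Both agents lay above DMSO without overlap. The rise was 1.87-fold with Bobcat339 (0.90 ± 0.27, adjusted p = 0.0415) and 6.87-fold with 4OI (2.78 ± 0.28, adjusted p = 7.6e-06). The Bobcat339 call for Tagln was lost in 8 of 9 fits that left out a library, the exception being the fit without DMSO replicate 2, and the log2 fold change ran from 0.66 to 1.22 over them.

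Acta2, the smooth muscle actin by which activated stellate cells are recognised, averaged 1.82 ± 0.374 CPM with Bobcat339, 5.77 ± 0.445 CPM with 4OI and 1.64 ± 0.390 CPM with DMSO (SD, n = 3). It rose 3.51-fold with 4OI (1.81 ± 0.25, adjusted p = 8.23e-05), and its Bobcat339 libraries overlapped those of DMSO. Des, the muscle-type filament desmin of rodent stellate cells, rose 1.59-fold with 4OI (0.67 ± 0.20, adjusted p = 0.0113). Upstream sequences are shown for the most abundant gene of the set and for the usual marker of activation. The 250 bases before Vim lie at chr2:13574061-13574310 on the plus strand and those before Acta2 at chr19:34255374-34255623 on the minus strand of GRCm38.p6 (RefSeq). Capitals mark CCAAT boxes (CCAAT or, on the other strand, ATTGG, 196 and 94 bases before the start site) and a TATA box (TATAAA, 32 bases before it). Acta2 has neither motif in this window:
Vim: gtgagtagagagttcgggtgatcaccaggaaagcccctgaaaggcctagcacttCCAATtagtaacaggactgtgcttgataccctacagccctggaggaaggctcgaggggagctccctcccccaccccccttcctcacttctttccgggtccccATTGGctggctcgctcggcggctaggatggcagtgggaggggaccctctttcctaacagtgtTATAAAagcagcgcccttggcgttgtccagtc
Acta2: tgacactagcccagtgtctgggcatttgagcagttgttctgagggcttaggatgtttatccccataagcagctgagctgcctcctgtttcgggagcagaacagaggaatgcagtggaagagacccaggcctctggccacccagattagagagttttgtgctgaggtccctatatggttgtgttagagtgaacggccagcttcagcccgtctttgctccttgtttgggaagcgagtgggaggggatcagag

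Upstream windows were matched for 27 of the 37 genes. Members were counted as genes with a match in any of their windows and the genome by single windows, so the 2 shares are not in like units. A CCAAT box on either strand was found in 8 of 27, against 33.8% of 32851 windows over the genome, and TATAAA in 5 of 27, against 12.4%. The AP-1 motif TGANTCA was in 2 of 27 (6.75% of all windows) and the antioxidant response element TGACNNNGC in 3 of 27 (10.2%), those of Col4a2, Pdgfd and Postn. An exact CArG box (CC, a run of A or T, then GG) was in 0 of 27 (1.47%). With so low a share over the genome, 0 of 27 tells little. The Acta2 window shown above holds ccctatatgg and ccttgtttgg, near matches that the exact pattern leaves out. A match is a stretch of letters and says nothing of binding.

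Collagens divided by type. The fibrillar collagen genes were low in all groups, and type IV, of basement membranes, was high. Col1a1, a chain of type I collagen, had 4.69, 2.94 and 3.36 CPM with Bobcat339, 11.4, 14.1 and 16.3 CPM with 4OI and 5.60, 6.16 and 5.35 CPM with DMSO. The Bobcat339 libraries were all below and the 4OI libraries all above DMSO. Col1a1 fell 1.56-fold with Bobcat339 (-0.64 ± 0.20, adjusted p = 0.0473) and rose 2.44-fold with 4OI (1.29 ± 0.20, adjusted p = 0.000206). Its Bobcat339 call was kept without Bobcat339 replicate 1 or 4OI replicate 1 and lost in the other 7 fits without a library, over which the log2 fold change ran from -0.86 to -0.50. Col1a2, the partner chain, rose 1.91-fold with 4OI (0.93 ± 0.18, adjusted p = 0.000802). With Bobcat339 its value was -0.46 ± 0.18 (adjusted p = 0.0959), with all 3 libraries below those of DMSO. Its upstream sequence is shown as that of a fibrillar collagen, at chr6:4505368-4505617 on the plus strand of GRCm38.p6 (RefSeq), with a CCAAT box in capitals 109 bases before the start site:
Col1a2: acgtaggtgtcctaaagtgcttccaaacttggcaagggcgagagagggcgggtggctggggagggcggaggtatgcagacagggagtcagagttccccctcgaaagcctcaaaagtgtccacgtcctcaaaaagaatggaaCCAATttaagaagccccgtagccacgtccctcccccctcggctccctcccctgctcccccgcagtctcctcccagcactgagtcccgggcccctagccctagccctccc

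Col3a1, the chain of type III collagen, had 4.35, 5.96 and 4.49 CPM with Bobcat339, 8.23, 11.9 and 6.04 CPM with 4OI and 10.0, 9.29 and 8.41 CPM with DMSO. The Bobcat339 libraries lay below DMSO, and the 4OI libraries spread on both sides of it. Col3a1 fell 1.87-fold with Bobcat339 (-0.91 ± 0.24, adjusted p = 0.0218) and was not called with 4OI (-0.08 ± 0.24, adjusted p = 0.78). The Bobcat339 call was lost without Bobcat339 replicate 1 or 3 or DMSO replicate 1 or 2, with log2 fold changes between -1.06 and -0.82 over all such fits. Col5a1 and Col6a1, of types V and VI, rose 5.44-fold and 2.56-fold with 4OI (adjusted p = 9.14e-06 and 0.00251). With Bobcat339, Col6a1 was at 0.784 to 1.57 CPM against 1.74 to 2.29 CPM with DMSO (-0.90 ± 0.31, adjusted p = 0.0636).

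Col4a1 and Col4a2, of type IV collagen, were the most abundant of the 7 collagens of the set in every group, and Col18a1, outside the set, was higher still in CPM with Bobcat339 and DMSO. Col4a1 had 137.9, 130.1 and 124.3 CPM with Bobcat339, 847.2, 867.8 and 913.5 CPM with 4OI and 153.3, 161.0 and 134.5 CPM with DMSO. Col4a2 had 93.4, 80.8 and 80.1 CPM with Bobcat339, 683.1, 678.2 and 744.2 CPM with 4OI and 100.2, 100.6 and 86.7 CPM with DMSO. For both chains the 4OI libraries were far above the rest, and the Bobcat339 libraries overlapped DMSO. The rises with 4OI were 5.86-fold for Col4a1 (2.55 ± 0.09, adjusted p = 1.21e-09) and 7.32-fold for Col4a2 (2.87 ± 0.10, adjusted p = 1.05e-09). The genes share a promoter region, with start sites 21 bases apart on opposite strands of chromosome 8 (GRCm38.p6, RefSeq). Per kilobase of exon, the level of Col4a1 over that of Col4a2 was 1.37 ± 0.0585 with Bobcat339, 1.11 ± 0.0239 with 4OI and 1.38 ± 0.0319 with DMSO (SD, n = 3). The chains are built into the same trimers. In the 4OI libraries the transcript ratio lay below that of every other library. The level of Col4a1 over that of Col1a1, per kilobase, was 32.4 ± 6.52 with Bobcat339, 56.3 ± 8.23 with 4OI and 23.1 ± 0.976 with DMSO. In sum, 6 of 7 collagens were called higher with 4OI, at a median of 1.36. With Bobcat339, edgeR called 2 of them lower, where 9.06% of all genes were. DESeq2 called 5 lower (Col1a1, Col1a2, Col3a1, Col6a1 and Col4a1), with no share of all genes given beside it.

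Proteoglycans and glycoproteins of the matrix rose as a body with 4OI, with 6 of 6 tested called higher at a median of 3.95. Dcn, the small proteoglycan decorin that binds collagen fibrils and marks fibroblasts and stellate cells, had 6.63, 6.65 and 9.34 CPM with Bobcat339, 145.6, 135.0 and 132.2 CPM with 4OI and 4.44, 4.44 and 6.34 CPM with DMSO. Each group lay apart from the others. Dcn rose 27.1-fold with 4OI (4.76 ± 0.19, adjusted p = 3.27e-09) and 1.49-fold with Bobcat339 (0.57 ± 0.17, adjusted p = 0.0362). The Bobcat339 call was kept without Bobcat339 replicate 1 or 2 or DMSO replicate 3 and was lost in the other 6 fits without a library, with log2 fold changes between 0.39 and 0.76. Sparc, a collagen-binding glycoprotein of matrix and endothelium, had 24.4, 25.9 and 27.7 CPM with Bobcat339, 686.4, 655.0 and 678.8 CPM with 4OI and 29.7, 26.5 and 26.3 CPM with DMSO. Bobcat339 and DMSO overlapped, and Sparc rose 24.5-fold with 4OI (4.61 ± 0.09, adjusted p = 8.43e-11).

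Fbln1, a fibulin of elastic fibres, had 0.413, 0.357 and 0.354 CPM with Bobcat339, 0.515, 0.698 and 0.911 CPM with 4OI and 0.178, 0.328 and 0.30 CPM with DMSO. It rose 2.63-fold with 4OI (1.39 ± 0.48, adjusted p = 0.027), a call that was lost without 4OI replicate 3, without DMSO replicate 1 or with the 6 libraries compared alone (adjusted p = 0.0548, and 0.0133 to 0.0913 over the alternatives). Over the fits without a library its log2 fold change ran from 1.16 to 1.58. Postn, periostin of healing tissue, averaged 0.585 ± 0.303 CPM with Bobcat339, 7.13 ± 0.0471 CPM with 4OI and 0.373 ± 0.214 CPM with DMSO (SD, n = 3), and rose 19.0-fold with 4OI (adjusted p = 1.22e-05). Bgn, the proteoglycan biglycan, rose 12.6-fold to 90.2 ± 7.82 CPM with 4OI, against 7.17 ± 0.988 CPM with DMSO (adjusted p = 4.58e-08). Lum, lumican, was at 1.38 to 2.00 CPM with 4OI and at 0.0597 to 0.312 CPM with DMSO (adjusted p = 0.000638). Mgp, the matrix Gla protein, had 0 counts in every Bobcat339 library, 0.264, 0.121 and 0 CPM with 4OI and 0.119, 0 and 0 CPM with DMSO, and was not tested.

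The cross-linking enzymes were the group in which Bobcat339 had its largest called fold among the members. Lox, lysyl oxidase, which starts the covalent linking of collagen and elastin, had 0.335, 0.650 and 0.720 CPM with Bobcat339, 7.46, 8.11 and 6.16 CPM with 4OI and 1.77, 1.54 and 2.46 CPM with DMSO. The groups did not overlap. Lox fell 3.37-fold with Bobcat339 (-1.75 ± 0.31, adjusted p = 0.00279) and rose 3.77-fold with 4OI (1.91 ± 0.30, adjusted p = 0.000211). Loxl2, a related oxidase that hepatocytes and endothelial cells make too, had 47.2, 37.8 and 36.5 CPM with Bobcat339, 58.7, 59.9 and 57.5 CPM with 4OI and 76.5, 73.8 and 75.1 CPM with DMSO. All treated libraries lay below all DMSO libraries. Loxl2 fell 1.86-fold with Bobcat339 (-0.89 ± 0.10, adjusted p = 0.000168) and 1.28-fold with 4OI (-0.36 ± 0.10, adjusted p = 0.00821). Timp1, which inhibits matrix metalloproteinases, rose 2.78-fold with 4OI (1.48 ± 0.37, adjusted p = 0.00484) and was at 1.38 to 3.26 CPM with Bobcat339 against 1.23 to 2.24 CPM with DMSO.

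**Figure D3:**
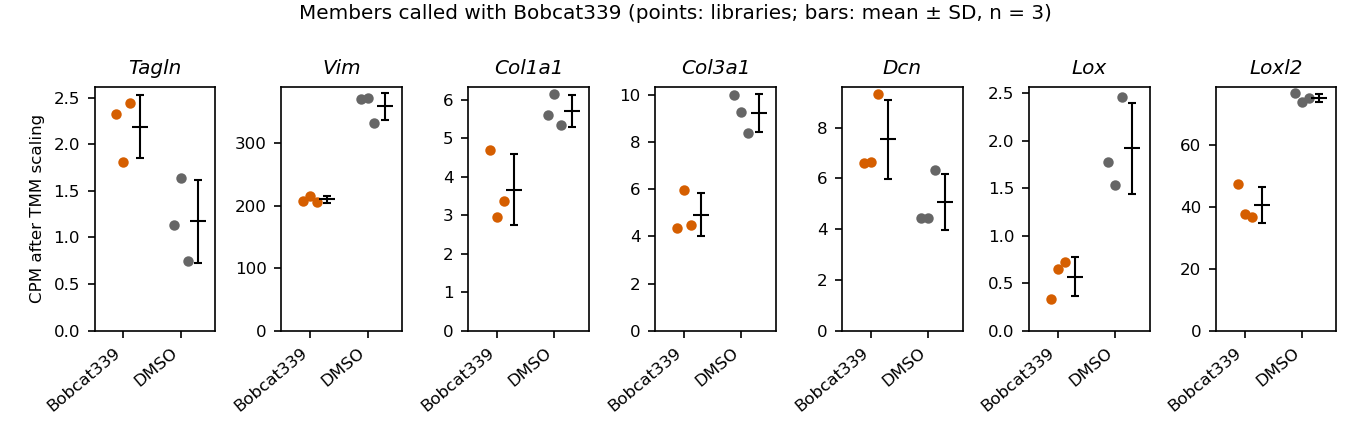
CPM of the 7 genes called with Bobcat339 in each Bobcat339 library and each DMSO library, on linear axes from 0, with bars for the mean ± SD of 3 libraries. The points of the groups do not overlap in any panel, with Tagln and Dcn higher and the other 5 genes lower with Bobcat339.

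Of the 6 members called with both agents against the shared DMSO libraries, Vim, Col1a1 and Lox were lower with Bobcat339 and higher with 4OI, Tagln and Dcn were higher with both, and Loxl2 was lower with both. Of all genes, 20.7% were called with Bobcat339 and 63.7% with 4OI. The share called with both is not given, so these patterns are not read as a trait of the set. The Bobcat339 calls of Col1a1, Tagln and Dcn were lost in some alternatives. In the direct comparison of 4OI with Bobcat339, 33 of 36 members (91.7%) were called higher, where 30.9% of all genes were, and the median was 2.98 against -0.00 over all genes. Cspg4, Thy1 and Fbln1 were not called. Pdgfd was at least 21.2-fold higher with 4OI. Lox was 12.7-fold higher with 4OI (3.67 ± 0.33, adjusted p = 2.44e-06), Vim 7.54-fold (2.91 ± 0.07, adjusted p = 1.77e-10) and Loxl2 1.45-fold (0.54 ± 0.10, adjusted p = 0.000692).

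Levels of different genes were set side by side per kilobase of exon. In the Bobcat339 libraries Vim led with 44.2 ± 1.04 CPM per kilobase (SD, n = 3), before Col4a1 (17.5 ± 0.918), Col4a2 (12.8 ± 1.12), Loxl2 (7.49 ± 1.08) and Sparc (6.87 ± 0.434). The levels of Loxl2 and Sparc did not differ beyond their spread. In the 4OI libraries Vim led with 333.5 ± 10.6 CPM per kilobase, followed by Sparc (177.8 ± 4.33), Col4a1 (117.4 ± 4.55), Col4a2 (106.0 ± 5.53), Ecm1 (54.3 ± 6.03) and Dcn (23.6 ± 1.21), and Loxl2 was at 10.9 ± 0.22. The DMSO libraries had the same 5 leading genes in the same order as those of Bobcat339, from Vim at 75.6 ± 4.71 CPM per kilobase to Sparc at 7.26 ± 0.50, and there Col4a2 and Loxl2 overlapped in spread. Dcn ranked 6 with 4OI and 12 with DMSO.

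Markers of other liver cells moved with the members in the 4OI libraries. Among all genes tested, 33.3% were called higher and 30.4% lower with 4OI, and 9.06% lower with Bobcat339. All 12 endothelial markers were called higher with 4OI, with a summed level of 3889 to 4069 CPM against 145.2 to 167.7 CPM with DMSO and a median log2 fold change of 4.41. All 13 macrophage markers rose too, to a sum of 6245 to 6474 CPM against 694.7 to 759.7 CPM with DMSO, at a median of 3.35. Of 12 hepatocyte markers 11 fell, at a median of -3.46. No marker of these 3 lists was at 0 in all libraries of a group. The endothelial markers rose between 12.5-fold and 47.7-fold, and 8 of the 28 members called higher reached the lowest of these values (Colec11, Hgf, Pdgfd, Rgs5, Dcn, Bgn, Sparc and Postn). The macrophage markers rose between 1.91-fold and 20.0-fold, and 25 of the 28 members reached the lowest of those values. That lowest value, a log2 fold change of 0.935, lies far under the median of 3.35 for the list. Reaching it therefore does not place a member at the level of the macrophage rise. Members that endothelial cells, macrophages, hepatocytes or duct cells are known to make as well (12 listed, 11 tested) had a median log2 fold change of 3.27 with 4OI, and the other 25 had 1.91. The part of these cell types in the members' changes was not tested. With Bobcat339, 12 of the 13 macrophage markers fell (median -2.21, sum 318.8 to 356.7 CPM), 5 of 12 endothelial markers fell (median -0.42, sum 128.7 to 149.3 CPM), and their part in the fall of Vim was likewise not tested.

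**Figure D4:**
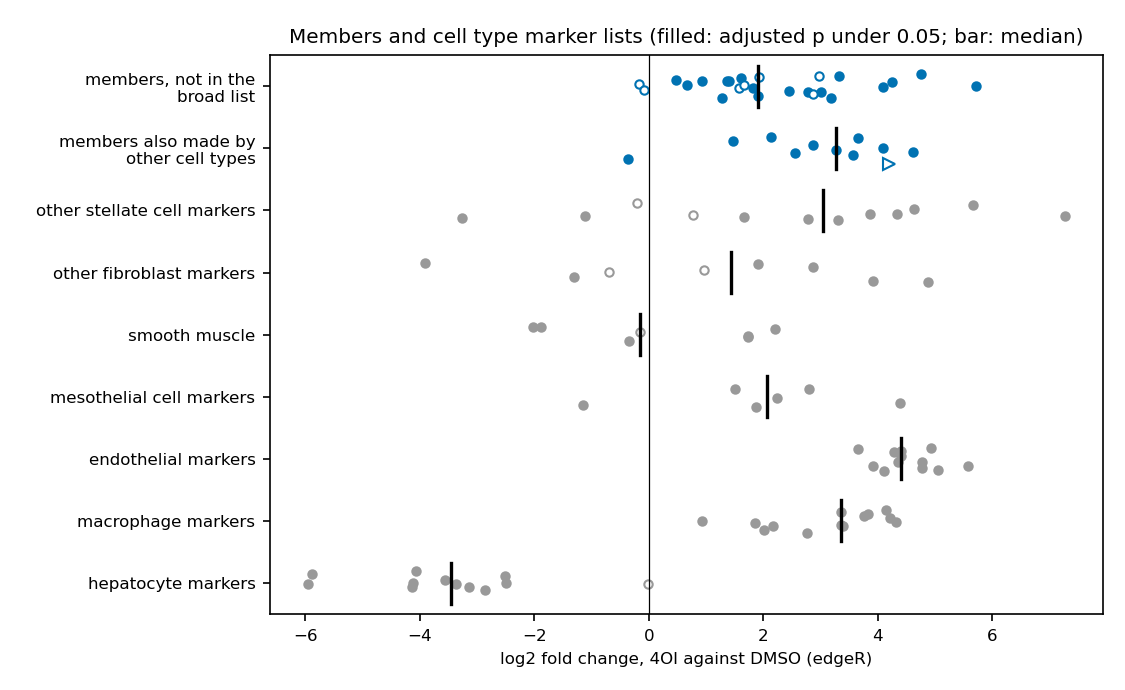
Log2 fold change of each gene with 4OI against DMSO, for the members (blue) in 2 rows and for marker lists (grey), filled where the adjusted p was under 0.05, with a bar at each median. The triangle is Pdgfd at its lower bound, and genes of the marker lists without counts in 1 of the groups or in both, such as Adamtsl2 and Cnn1 (0 counts with DMSO), are not drawn, so that the bars stand at 3.04 for 12 other stellate cell markers and -0.16 for 7 smooth muscle genes. Thy1, at or under the floor throughout, is drawn at its fitted value. The endothelial markers form the tightest block, around a median of 4.41, above the medians of 1.91 and 3.27 of the members.

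Further stellate and fibroblast markers outside the 37 genes were followed in lists chosen by name, again with earlier results of these data known. Of 13 other stellate cell markers tested, 9 were higher and 2 lower with 4OI (median 3.31). Among all genes tested, 33.3% were called higher and 30.4% lower with 4OI, which holds for the lists below too. Ednrb, the endothelin B receptor, was found at 7.04, 11.95 and 12.1 CPM with Bobcat339, 817.3, 831.3 and 891.2 CPM with 4OI and 6.20, 5.01 and 5.30 CPM with DMSO. That was 154-fold higher with 4OI (7.26 ± 0.22, adjusted p = 5.95e-10) and 1.88-fold higher with Bobcat339 (adjusted p = 0.00543), and sinusoidal endothelial cells make it as well. Adamtsl2 had no counts in any Bobcat339 or DMSO library and 0.740 to 1.19 CPM with 4OI. Of 8 other fibroblast markers tested, 4 rose and 2 fell with 4OI. Cd34 rose 15.1-fold (adjusted p = 7.54e-08), and Entpd2, an ectonucleotidase of portal fibroblasts, fell 15.0-fold (adjusted p = 4.08e-08). The rise of Cd34 lay within the 12.5-fold to 47.7-fold range of the endothelial markers, and which cells it came from was not tested. Among smooth muscle genes 3 rose and 3 fell of 8, and Actg2, Myocd and Kcnmb1 had no counts in any library. Mesothelial markers summed to 4.25 to 4.75 CPM with Bobcat339, 13.4 to 14.3 CPM with 4OI and 3.64 to 4.91 CPM with DMSO.

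The wider matrix genes did not all follow the members. Of 25 other collagen and matrix genes tested, 17 rose and 5 fell with 4OI, and 2 rose and 7 fell with Bobcat339. The counts of this paragraph stand beside 33.3% of all genes called higher and 30.4% lower with 4OI. With Bobcat339, 11.6% of all genes were called higher and 9.06% lower. Fn1, fibronectin, which hepatocytes secrete into plasma, was among those that fell with both agents. It had 2131, 2033 and 2044 CPM with Bobcat339, 120.8, 119.6 and 114.3 CPM with 4OI and 2741, 2871 and 2390 CPM with DMSO. The groups did not overlap, and Fn1 was 22.6-fold lower with 4OI (-4.50 ± 0.09, adjusted p = 8.53e-11) and 1.29-fold lower with Bobcat339 (-0.37 ± 0.08, adjusted p = 0.00715). Nid1, nidogen of basement membranes, fell 1.94-fold with 4OI and 1.38-fold with Bobcat339 (adjusted p = 1.88e-07 and 0.000539). Genes of collagen processing split as well, with 8 higher and 5 lower of 14 with 4OI and 6 lower with Bobcat339. Plod1, a lysyl hydroxylase of collagen, rose 2.31-fold with 4OI and fell 1.41-fold with Bobcat339 (adjusted p = 3.16e-06 and 0.00994). Of 18 matrix proteases and inhibitors, 12 rose and 5 fell with 4OI, and 1 rose and 7 fell with Bobcat339. Mmp12, the macrophage elastase, was at 3279 to 3497 CPM with 4OI against 11.0 to 13.4 CPM with DMSO (adjusted p = 2.12e-07). Met, the receptor for Hgf, was 1.66-fold lower with 4OI (adjusted p = 0.000527) while its ligand was higher, and the activating protease Hgfac was 20.1-fold lower (adjusted p = 5.15e-09).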

How the data were processed

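RNA sequencing of 9 libraries was analysed from 1 table of 56691 genes. The authors deposited expected counts (estimated counts for a gene), already whole and unscaled. Tools in the submitters' processing notes are featureCounts 1.5.0-p3, HISAT2 2.0.5 and CASAVA 1.8, with genome build, annotation and strand setting not given in the sources used here. Reads from overlapping genes on opposite strands may therefore not be told apart. Between 43.7% and 45.6% of values from 4 to 40 were multiples of 4, against 27% if evenly spread, so 4 counts were taken as 1 read pair. All columns were mapped to samples by name. Symbols were attached by Ensembl identifier for 52073 genes, exon lengths came from GENCODE M21 and upstream sequences from RefSeq.

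The 3 groups, taken from the treatment labels, entered 1 quasi-likelihood fit after filterByExpr and TMM scaling (edgeR 4.0.16, R 4.3.3, two-sided tests). P-values were adjusted by Benjamini and Hochberg over 18379 genes (common biological coefficient of variation 0.24). Summaries and plots were made with Python 3.11.15, pandas 2.3.3 and matplotlib 3.10.9. The procedure was tested on data simulated for Bobcat339 against DMSO, with the lowest genes kept out of those changed. It recovered 30% of 1.5-fold changes, 74% of 2-fold, 86% of 4-fold and 92% of 8-fold, and called 0.0288% of unchanged genes. Only 50 genes per fold were changed among 17569, whereas 20.7% of all genes were called in the real comparison. The counts were drawn from the kind of model that is fitted, without the excess of multiples of 4, and 4OI was given no change. These rates therefore do not carry over to the real comparisons. Members and lists were chosen with earlier results of these data known. Values in every library were given for the 2 genes of highest mean CPM in each role group, for Dcn and Rgs5, for genes called in opposite directions and for genes whose call against DMSO was lost in an alternative. From each further list the 2 of highest mean CPM and markers without counts could be named. A gene that this rule takes is not reported here. Alternatives were DESeq2 1.42.0, other scaling, other filters, only the 6 libraries compared, values divided by 4, a 2-fold minimum, a replicate block and fits without each library.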

Additional observations from a re-analysis of the deposited data

How the results depend on the processing

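For Bobcat339 against DMSO, members called higher numbered 2, against 1 with RLE scaling or library size only and 0 without a filter, with the 6 libraries compared alone or with a 2-fold minimum (0 to 1 with a library left out). Members called lower numbered 5, against 11 with DESeq2 and 1 with a 2-fold minimum (3 to 6 with a library left out, lowest without DMSO replicate 1). The number of members called lower thus depended on the tool. No share of all genes called by DESeq2 is given here, so its member counts stand without that comparison. Over all genes the 2-fold minimum left 303 of 2136 higher and 549 of 1666 lower, and leaving out a library gave 1380 to 2370 higher and 1046 to 1860 lower, lowest without DMSO replicate 1. For 4OI against DMSO the 2-fold minimum left 3854 higher, 3503 lower and 0 members lower, against 6121, 5590 and 1, and 27 to 29 members were higher without a library. For 4OI against Bobcat339 it left 3761 higher and 3301 lower, against 5688 and 5750, and the calls of Hand2, Tcf21, Ngfr, Timp1 and Col3a1 were lost in some alternatives. The cause of these moves was not tested.

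Uncalled members changed sign. In Bobcat339 against DMSO these were Reln without a filter (0.0066) and with the replicate block (3e-04) and Col5a1 with DESeq2 (-0.0448), RLE scaling (-0.0641) and library size only (-0.028). In 4OI against DMSO it was Col3a1 with library size only (0.0078). With a library left out the Bobcat339 values ran from -0.0358 to 0.0674 for Reln, -5.9208 to 0.4854 for Ngfr, -0.4548 to 0.1207 for Pdgfrb, -0.0387 to 0.2043 for Nes, -0.0091 to 0.3369 for Acta2, -0.2924 to 0.2131 for Col5a1, -0.154 to 0.8746 for Lum and -0.2849 to 0.0509 for Bgn. The 4OI value against DMSO ran from -0.3755 to 0.1234 for Col3a1. Members at or under the floor in both groups were left out of these ranges.

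Same-numbered libraries did not deviate together (correlations from -0.027 to 0.097), so the numbers were not taken as pairs. The replicate block gave 2 members higher and 5 lower for Bobcat339 against DMSO, 27 and 1 for 4OI against DMSO, and 31 higher for 4OI against Bobcat339. The calls of Fbln1 (4OI against DMSO, adjusted p = 0.0531) and Col1a1 (Bobcat339 against DMSO, adjusted p = 0.071) were not kept with it. Over all genes it gave 2336 higher and 1744 lower for Bobcat339 against DMSO. Library size only moved the median of all genes from -0.00 to 0.12 for 4OI against Bobcat339, and member changes there are to be read relative to it. Depth limits the members near 0.137 to 0.180 CPM, where a few read pairs decide the values. With 3 libraries a group, small changes may be missed in low genes and also in genes above the floor.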
